A study of Mus musculus with 21 samples.

Results

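The 10 genes described here, Apoe, Trem2, Tyrobp, Clec7a, Lgals3, Spp1, Gpnmb, Lpl, Cst7 and Itgax, are known as genes of the phagocytic, disease-associated state of microglia, the resident macrophages of the retina and brain. They were taken by name from a table of read counts of 17164 genes, and were chosen with earlier results of these data known. All 10 were counted and all 10 passed the filter on low counts.

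RNA was sequenced from sorted retinal ganglion cells, which send their axons through the optic nerve, of C57BL/6 mice aged 6 to 7 weeks, at 3 days after crush of the optic nerve. The cells had received single guide RNAs against ATF3 (5 libraries), ATF4 (2), CEBPG, which is C/EBP gamma (4), or CHOP, the product of Ddit3 (5), or a control guide (4, genotype WT Control). Every group, the controls included, had the crush. The sources used here do not give how guides and nuclease were delivered, which cells carried the edit or how the sort was gated. A further library has the title of a control and the genotype of a CHOP knockout and was placed in no group. By the sample sheet of the submitters, batch 3 holds the ATF3, CEBPG and CHOP libraries, all female, batch 2 the controls, all male, and batch 1 the ATF4 libraries, 1 of each sex. Knockout and batch therefore cannot be told apart in any comparison with control, nor, outside ATF4, can sex. Comparisons among ATF3, CEBPG and CHOP share batch and sex.

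In the disease-associated state, microglia lower their resting genes and raise a set for taking up and digesting debris and lipid. TREM2 is a surface receptor for lipids and apolipoproteins that signals through the adaptor DAP12, the product of Tyrobp, and in mouse models of brain disease the full state depends on it. Apolipoprotein E is both a ligand of TREM2 and a product of the state. Several of the genes have other sources in the retina: Müller glia make Apoe, alpha ganglion cells make Spp1, pigment cells make Gpnmb, and monocytes and dendritic cells carry many of the rest.

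Depth, as counted reads, was between 25267560 and 32776378 in ATF3, 11929692 and 12404601 in ATF4, 9000250 and 29810987 in CEBPG, 14272784 and 31543917 in CHOP, and 6401446 and 11752828 in control libraries. The lowest count behind any value of a member was 38 reads, for Spp1 in a control. Levels of the targeted transcripts do not check the knockouts. Atf3 was lower than in control in ATF3 knockouts (log2 fold change -1.56, adjusted p = 2.41e-05) and as low in CHOP knockouts (-1.62, adjusted p = 1.47e-05), and ATF3 against CHOP gave 0.05 (adjusted p = 0.972). Atf4 was lower in ATF4 knockouts (-0.97, adjusted p = 0.000211) and also in ATF3 (-1.77), CHOP (-1.50) and CEBPG knockouts (-1.22), which do not target it (adjusted p = 3.8e-10, 5.38e-09 and 3.29e-07). Ddit3 was lower in CHOP knockouts (-0.43, adjusted p = 0.00908) and also in ATF3 (-0.51, adjusted p = 0.00228) and CEBPG knockouts (-0.41, adjusted p = 0.0186). Cebpg did not pass in CEBPG knockouts (-0.16, adjusted p = 0.491) and was lower in the other 3 (-0.42 to -0.63). Within the CEBPG group, replicates 6 and 8 stand apart from the others in earlier results of these data, so CEBPG counts are also given without both. ATF4 replicate 1 is female in the sample sheet but had 61.5 CPM of the Y-linked Ddx3y and 0.26 CPM of Xist. Defining genes of ganglion cells (10 genes) summed to 0.0475% to 0.0628% of counted reads as group means, and a list of 12 genes shared by myeloid cells (C1qa, Csf1r, Ptprc and others) summed to 0.438% to 0.806%. All 12 genes of resting microglia that were looked for, such as P2ry12, Tmem119 and Cx3cr1, had reads in every group. Rod photoreceptor genes (10 genes) summed to 3.6% of counted reads in control libraries. In ATF3, ATF4, CEBPG and CHOP libraries they summed to 0.325%, 0.311%, 0.342% and 0.602%. What this difference does to the comparisons with control was not tested. In bulk libraries of this kind, fewer cells of a type and less RNA per cell cannot be told apart.

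Levels are given as CPM, reads scaled to library size with TMM factors, and levels of different genes are set side by side only as CPM per kilobase of exon. By group mean per kilobase, Apoe stood first and Tyrobp after it in all 5 groups, and Itgax came last. Apoe had 3945 ± 349 CPM per kilobase in ATF3 (SD, n = 5), 3644 ± 1193 in ATF4 (n = 2), 3304 ± 288 in CEBPG (n = 4), 1478 ± 290 in CHOP (n = 5) and 1822 ± 488 in control libraries (n = 4). Tyrobp, next in order, had 342 ± 48.8 CPM per kilobase in CEBPG and 184 ± 43.6 in control libraries. In CEBPG it did not differ from Spp1 beyond their spread, and Spp1 was the higher in replicates 6 (331 against 298) and 9 (369 against 319). The middle of the order differed between groups. In CEBPG libraries Spp1, Lgals3 and Clec7a came next, with 274 ± 89.6, 96.3 ± 10.6 and 73.2 ± 8.27 CPM per kilobase, ahead of Cst7 with 49.0 ± 3.37 and Trem2 with 30.8 ± 3.05. In control libraries Spp1 had 28.1 ± 35.1, Trem2 19.2 ± 3.97, Cst7 18.0 ± 3.86, Lgals3 15.7 ± 3.21 and Clec7a 14.6 ± 1.94 CPM per kilobase, neighbours that do not differ beyond their spread.

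Apoe alone made up most of the reads of the 10 genes, from 81.8% in CEBPG to 93.4% in ATF3 libraries as group means. The other 9 genes together took 0.163% ± 0.0214 of counted reads in CEBPG (SD, n = 4), 0.0598% ± 0.00874 in ATF3 (n = 5), 0.0636% ± 0.0188 in ATF4 (n = 2), 0.0477% ± 0.00473 in CHOP (n = 5) and 0.0449% ± 0.0137 in control libraries (n = 4). Each CEBPG library, from 0.138% to 0.184%, lay above every other library, the highest of which was an ATF4 library at 0.0770%.

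**Figure D1:**
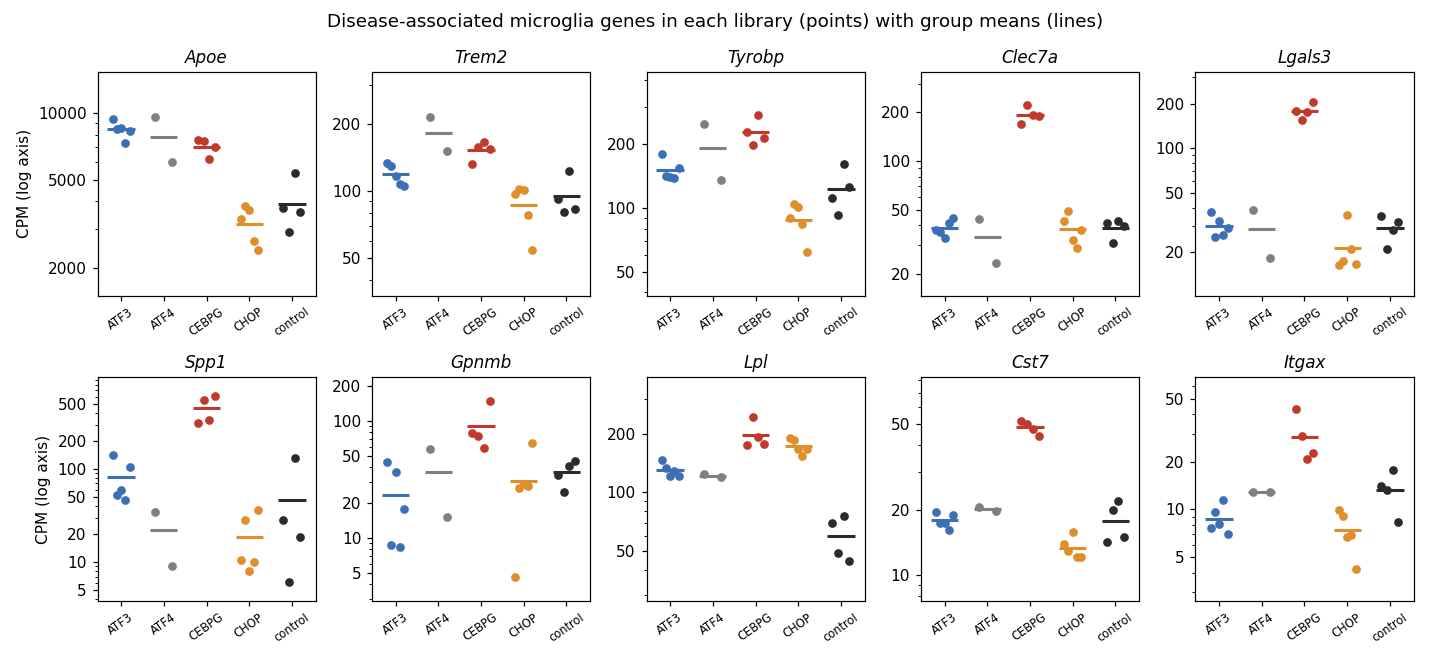
CPM (log axis) of the 10 genes in each of the 20 libraries (points), by group, with group means as lines. For Clec7a, Lgals3, Spp1, Cst7 and Itgax the 4 CEBPG libraries lie above every other library, while for Apoe the ATF3, ATF4 and CEBPG libraries lie above the CHOP and control libraries, and for Lpl the controls are lowest.

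The CEBPG knockouts were first set against the ATF3 and CHOP knockouts of the same batch. Against CHOP, 9 of the 10 genes were higher and none was lower at an adjusted p below 0.05, where 13.5% of all 16797 genes tested were called higher, 13.2% lower and 26.7% in either direction. Lpl was the gene that did not pass. Against ATF3, 8 of 10 were higher and none lower, where 10.2% of all genes were called higher, 10.1% lower and 20.4% in either direction; Apoe and Trem2 did not pass. The groups did not overlap for 8 genes against CHOP and for 8 against ATF3, as for 21.2% and 22.3% of all genes. The median log2 fold change of the 10 genes was 1.71 against CHOP and 1.58 against ATF3, beside -0.03 and 0.00 over all genes. Without CEBPG replicates 6 and 8 the counts were 9 against CHOP and 6 against ATF3.

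Clec7a (mm10 chromosome 6, 129461591 to 129472779, minus strand) encodes dectin-1, a receptor for beta-glucans that is a surface marker of the disease-associated state. It had 169, 222, 191 and 190 CPM in CEBPG libraries, against 37.6, 36.4, 33.2, 41.4 and 44.2 CPM in ATF3 and 42.7, 48.9, 32.5, 28.9 and 37.4 CPM in CHOP libraries. Every CEBPG library lay far above every library of both other knockouts. The log2 fold change was 2.33 against ATF3 (SE 0.17, 5.01-fold, adjusted p = 4.39e-09) and 2.34 against CHOP (SE 0.17, 5.07-fold, adjusted p = 2.73e-09). The remaining groups did not differ from each other beyond their spread, with means of 38.5 in ATF3, 33.7 in ATF4, 38.1 in CHOP and 38.6 CPM in control libraries.

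Lgals3 (chromosome 14, 47367751 to 47386160, plus strand) encodes galectin-3, a secreted lectin that binds TREM2 and damaged lysosomes. It had 179, 156, 176 and 204 CPM in CEBPG libraries, against 37.4, 25.2, 32.5, 26.0 and 29.0 CPM in ATF3 and 16.4, 17.4, 35.6, 21.1 and 16.7 CPM in CHOP libraries. Again no library of the other knockouts came near the CEBPG libraries, and CHOP replicate 3 stood well above the rest of its group. The log2 fold change was 2.58 against ATF3 (SE 0.23, 5.96-fold, adjusted p = 5.22e-08) and 3.06 against CHOP (SE 0.23, 8.34-fold, adjusted p = 4.27e-09).

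Spp1 (chromosome 5, 104435118 to 104441050, plus strand) encodes osteopontin, a secreted phosphoprotein. It had 311, 546, 340 and 607 CPM in CEBPG libraries, against 141, 53.0, 59.8, 46.2 and 106 CPM in ATF3 and 10.6, 28.5, 8.13, 9.93 and 35.9 CPM in CHOP libraries. The 3 groups do not overlap, in the order CEBPG, ATF3, CHOP, and each spans a wide range. Its log2 fold change was 4.59 against CHOP (SE 0.72, 24.0-fold, adjusted p = 0.000117), the largest among the 10 genes, and 2.47 against ATF3 (SE 0.66, 5.54-fold, adjusted p = 0.0118). An annotated gene model, Gm42793, overlaps Spp1 on the same strand, so the counting of shared reads is uncertain. The other genes of alpha ganglion cells that were looked for (6 genes) summed to 0.0065% of reads in CEBPG, 0.0120% in ATF3 and 0.00719% in CHOP libraries, and none of the 6 was called higher in CEBPG than in either. The part of alpha ganglion cells in the level of Spp1 was not tested.

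Cst7 (chromosome 2, 150570415 to 150578944, plus strand) encodes cystatin F, an inhibitor of lysosomal cysteine proteases in immune cells. It had 51.6, 50.2, 47.3 and 44.1 CPM in CEBPG libraries, against 19.5, 17.4, 17.4, 16.1 and 18.9 CPM in ATF3 and 13.9, 12.9, 15.7, 12.1 and 12.1 CPM in CHOP libraries. The libraries of each group lay close together and no groups of the 3 overlapped. The log2 fold change was 1.44 against ATF3 (SE 0.17, 2.70-fold, adjusted p = 1.78e-06) and 1.86 against CHOP (SE 0.17, 3.62-fold, adjusted p = 4.72e-08).

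Itgax (chromosome 7, 128129547 to 128150657, plus strand) encodes CD11c, the alpha subunit of an integrin that is also carried by dendritic cells. It had 42.8, 29.1, 20.7 and 22.6 CPM in CEBPG libraries, against 7.59, 9.68, 8.12, 11.4 and 7.0 CPM in ATF3 and 9.94, 9.16, 6.74, 6.88 and 4.24 CPM in CHOP libraries. All CEBPG libraries were above all ATF3 and CHOP libraries (log2 fold change 1.72, SE 0.28, adjusted p = 0.000114 against ATF3, and 1.96, SE 0.28, adjusted p = 1.77e-05 against CHOP). A list of 8 dendritic cell genes summed to 0.0368% of reads in CEBPG, 0.0158% in ATF3, 0.0110% in CHOP and 0.0360% in control libraries, where Itgax averaged 28.8, 8.75, 7.39 and 13.3 CPM in the same order. Its H2-Aa, an MHC class II chain, was higher in CEBPG by 1.19 (SE 0.20, adjusted p = 0.000141) against ATF3 and by 1.76 (SE 0.20, adjusted p = 9.01e-07) against CHOP on the log2 scale. H2-Aa averaged 289 CPM in CEBPG and 349 CPM in control libraries (-0.27, adjusted p = 0.344). Ccr7 was higher in CEBPG than in ATF3 (2.16, adjusted p = 0.0222), CHOP (2.80, adjusted p = 0.00348) and control (2.47, adjusted p = 0.0114). Cd209a was higher than in CHOP (5.12, adjusted p = 0.00119) and control (6.35, adjusted p = 0.000857) and did not pass against ATF3 (0.51, adjusted p = 0.757). None of the 8 was called lower in these comparisons. Clec9a was at 0 in all CEBPG libraries and at most 0.241 CPM as a group mean elsewhere. The part of dendritic cells in the level of Itgax was not tested.

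Gpnmb (chromosome 6, 49036546 to 49070929, plus strand) encodes a glycoprotein of phagocytes and of pigment cells, in which it sits in lysosomes and melanosomes. It had 78.3, 74.0, 58.2 and 148 CPM in CEBPG libraries, against 44.3, 8.61, 36.5, 8.37 and 17.7 CPM in ATF3 and 4.62, 26.4, 29.0, 27.5 and 65.3 CPM in CHOP libraries. CHOP replicate 5 overlapped the CEBPG libraries and CHOP replicate 1 lay far below its group. The log2 fold change was 1.96 against ATF3 (SE 0.53, 3.88-fold, adjusted p = 0.0105) and 1.55 against CHOP (SE 0.53, 2.92-fold, adjusted p = 0.0320). The call against CHOP was lost without CEBPG replicate 9 (adjusted p = 0.114) and without CHOP replicate 1, 2, 3 or 4 (adjusted p = 0.0548, 0.0595, 0.0547 and 0.0606). Of the 7 counted genes of pigment epithelium and melanocytes, which summed to 0.00163% of reads in CEBPG, 0.00112% in ATF3 and 0.00159% in CHOP libraries, Tyrp1 was at 0 in all CEBPG libraries. Pmel, of melanosomes, averaged 8.15 CPM in CEBPG, 1.72 in ATF3, 2.90 in CHOP and 0.955 in control libraries, and it was higher in CEBPG than in ATF3 (2.24, adjusted p = 0.0164) and control (3.13, adjusted p = 0.00217) but did not pass against CHOP (1.48, adjusted p = 0.0915). The part of pigment cells in the level of Gpnmb was not tested.

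The receptor and its adaptor moved less. Tyrobp (chromosome 7, 30413760 to 30417585, plus strand) had 228, 199, 274 and 213 CPM in CEBPG libraries, against 179, 142, 140, 139 and 154 CPM in ATF3 and 89.4, 104, 101, 84.3 and 61.8 CPM in CHOP libraries. These 3 groups do not overlap either, with log2 fold changes of 0.60 against ATF3 (SE 0.17, adjusted p = 0.0157) and 1.37 against CHOP (SE 0.17, adjusted p = 3.60e-06). The first of these calls was lost without CEBPG replicate 8 (0.50, adjusted p = 0.063). Trem2 (chromosome 17, 48346401 to 48354147, plus strand) had 132, 158, 167 and 154 CPM in CEBPG libraries, against 134, 130, 117, 108 and 106 CPM in ATF3 and 97.4, 102, 101, 78.1 and 54.3 CPM in CHOP libraries. It was higher in CEBPG than in CHOP (0.82, SE 0.16, adjusted p = 0.000677), and its difference from ATF3, where CEBPG replicate 10 lay within the ATF3 range, did not pass (0.36, SE 0.16, adjusted p = 0.135).

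Both lipid genes followed other patterns. Apoe (chromosome 7, 19696109 to 19699188, minus strand) had 7587, 7445, 6221 and 7004 CPM in CEBPG libraries, against 9436, 8516, 8543, 7339 and 8335 CPM in ATF3 and 3310, 3804, 3654, 2633 and 2401 CPM in CHOP libraries. It was 2.24-fold higher in CEBPG than in CHOP (log2 fold change 1.16, SE 0.16, adjusted p = 9.57e-06) and did not pass against ATF3 (-0.26, SE 0.16, adjusted p = 0.286). Genes of Müller glia, which also make Apoe, were counted beside it: the 12 genes summed to 0.272% ± 0.0308 of reads in CEBPG, 0.462% ± 0.0246 in ATF3 and 0.434% ± 0.0108 in CHOP libraries, with 8 of the 12 lower and 1 higher in CEBPG against CHOP, and the same counts against ATF3. The gene that was higher was Vim, which encodes vimentin (1.22, SE 0.16, adjusted p = 5.45e-06 against CHOP, and 0.79, SE 0.16, adjusted p = 0.000894 against ATF3). Of all genes, 13.2% were called lower and 13.5% higher against CHOP, and 10.1% and 10.2% against ATF3. The part of Müller glia in the level of Apoe was not tested. Lpl (chromosome 8, 68880491 to 68907448, plus strand), which encodes the lipase that frees fatty acids from lipoproteins, had 174, 243, 193 and 177 CPM in CEBPG libraries, against 146, 133, 121, 129 and 121 CPM in ATF3 and 191, 185, 167, 154 and 166 CPM in CHOP libraries. It was higher in CEBPG than in ATF3 (0.60, SE 0.14, adjusted p = 0.0029) and did not pass against CHOP (0.19, SE 0.14, adjusted p = 0.343), where the groups overlapped. Without CEBPG replicates 6 and 8 the calls of Tyrobp (0.56, adjusted p = 0.08) and Lpl (0.44, adjusted p = 0.0645) against ATF3 were lost.

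**Figure D2:**
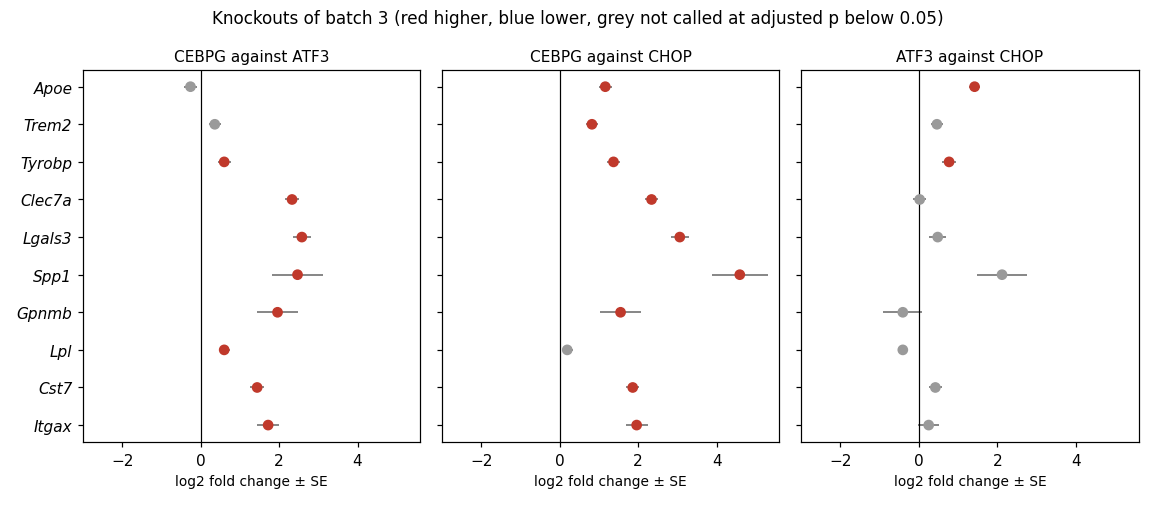
Log2 fold changes (x axis) of the 10 genes, with SE as bars, in the comparisons that share batch and sex. Red points passed at an adjusted p below 0.05 and grey points did not. In CEBPG against CHOP 9 genes are red, in CEBPG against ATF3 8, and in ATF3 against CHOP only Apoe and Tyrobp.

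Clec7a, Lgals3, Spp1 and Cst7 were called higher in CEBPG knockouts in every comparison and under both scalings given below, to all genes and to myeloid genes, and their promoters are shown for that reason. The sequences are RefSeq windows of the build GRCm38.p6, from 250 bases before to 50 bases after an annotated start, written 5′ to 3′ on the strand of the gene, with motif matches in capitals. They lie at chr6:129472730-129473029 (minus strand) for Clec7a and, on the plus strand, at chr14:47373610-47373909 for Lgals3, chr5:104434861-104435160 for Spp1 and chr2:150570165-150570464 for Cst7.
Clec7a: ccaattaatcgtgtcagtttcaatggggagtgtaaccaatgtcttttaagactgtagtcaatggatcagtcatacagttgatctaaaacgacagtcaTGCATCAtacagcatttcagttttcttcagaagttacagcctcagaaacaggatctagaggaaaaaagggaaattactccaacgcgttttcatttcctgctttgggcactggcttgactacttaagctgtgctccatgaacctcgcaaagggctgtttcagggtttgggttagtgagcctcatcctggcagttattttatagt
Lgals3: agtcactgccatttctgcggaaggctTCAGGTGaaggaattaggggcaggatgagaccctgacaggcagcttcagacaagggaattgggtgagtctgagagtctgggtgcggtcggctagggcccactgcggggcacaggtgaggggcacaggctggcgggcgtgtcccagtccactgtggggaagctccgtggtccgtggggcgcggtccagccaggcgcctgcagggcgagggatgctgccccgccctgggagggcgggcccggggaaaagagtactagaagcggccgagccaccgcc
Spp1: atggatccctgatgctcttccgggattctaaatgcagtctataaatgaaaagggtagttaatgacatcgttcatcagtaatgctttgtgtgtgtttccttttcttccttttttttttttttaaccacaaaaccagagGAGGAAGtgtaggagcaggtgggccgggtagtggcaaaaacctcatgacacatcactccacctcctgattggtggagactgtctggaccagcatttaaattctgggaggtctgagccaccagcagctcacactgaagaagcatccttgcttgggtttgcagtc
Cst7: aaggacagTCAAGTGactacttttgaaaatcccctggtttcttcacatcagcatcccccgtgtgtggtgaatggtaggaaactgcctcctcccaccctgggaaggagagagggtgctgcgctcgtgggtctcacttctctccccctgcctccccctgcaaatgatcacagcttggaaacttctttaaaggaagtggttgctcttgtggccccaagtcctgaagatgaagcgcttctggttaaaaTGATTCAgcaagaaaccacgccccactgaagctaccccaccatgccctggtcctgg
Of the 10 genes, 8 had a promoter in the RefSeq table, which did not include Tyrobp or Lpl. Both strands were searched for 5 motifs. A gene was counted when any of its promoter windows had a match, while the percentages are over all windows, so the units differ. Clec7a and Spp1 each have a further window that is not shown, which in Spp1 had no match. The AP-1 letters TGANTCA, bound by FOS, JUN and ATF3 family factors, were in the promoters of Trem2, Gpnmb, Cst7 and Itgax, 4 of 8, and in 7.81% of all 32851 promoters of the table. In Cst7 they start 6 bases before the annotated start. The letters TGATGCA of the composite site of C/EBP and ATF factors were in Clec7a, in reverse, 153 bases before its start, and in 3.15% of promoters. The C/EBP letters TTGCNCA were in Trem2 and Itgax and in 13.6% of promoters, the M-box letters TCANGTG of MITF family factors in Lgals3 and Cst7 and in 14.3%, and the PU.1 letters GAGGAAG in Trem2 and Spp1 and in 13.6%. A match is a run of letters and not a known binding site.

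ATF3 knockouts were then set against CHOP knockouts. Here 2 of 10 genes were higher and none was lower, where 1.51% of all genes were called higher, 0.756% lower and 2.26% in either direction. The genes were Apoe, with a log2 fold change of 1.42 (SE 0.15, 2.67-fold, adjusted p = 8.82e-06), and Tyrobp, with 0.77 (SE 0.17, 1.71-fold, adjusted p = 0.0105). All 5 ATF3 libraries exceeded all 5 CHOP libraries for both, and also for Trem2, Spp1 and Cst7, while for Lpl all 5 lay below. These 6 genes without overlap compare with 8.06% of all genes. Spp1 averaged 81.3 ± 41.0 CPM in ATF3 and 18.6 ± 12.7 CPM in CHOP libraries (SD, n = 5 each), a difference of 2.12 on the log2 scale that did not pass in the fit of all 20 libraries (SE 0.64, adjusted p = 0.105) and passed when only the libraries of batch 3 were fitted (2.12, adjusted p = 0.00651). Lpl averaged 130 ± 10.7 CPM in ATF3 and 173 ± 15.3 CPM in CHOP libraries (-0.41, SE 0.13, adjusted p = 0.114, and -0.40, adjusted p = 0.0384, with batch 3 alone). Clec7a, at 38.5 ± 4.31 CPM in ATF3 and 38.1 ± 7.97 CPM in CHOP libraries, gave 0.02 (SE 0.16, adjusted p = 0.991).

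Against the controls, which lie in another batch, 9 of 10 genes were higher in CEBPG knockouts and none lower, where 18.3% of all genes were called higher, 15% lower and 33.4% in either direction. The median of the 10 was 1.36, beside 0.06 over all genes. All 10 genes were without overlap, as were 26.9% of all genes. Without CEBPG replicates 6 and 8 the count stayed at 9. The log2 fold changes that passed ran from 0.68 for Trem2 (SE 0.18, adjusted p = 0.00396) to 3.27 for Spp1 (SE 0.74, 9.63-fold, adjusted p = 0.00208). Cst7 (1.44, SE 0.18, adjusted p = 1.12e-06), Itgax (1.11, SE 0.30, adjusted p = 0.00592) and Tyrobp (0.89, SE 0.19, adjusted p = 0.000597) were among them. Lgals3 had 35, 21.2, 28.2 and 32.1 CPM in control libraries (log2 fold change 2.61, SE 0.25, adjusted p = 1.69e-08), and Clec7a had 41.1, 31.1, 42.4 and 39.8 CPM (2.32, SE 0.19, adjusted p = 9.61e-10). Spp1 was spread most widely in the controls, with 28.2, 6.15, 132 and 18.7 CPM, and without control replicate 7, the highest, its value was 4.63. Gpnmb, with 34.3, 24.8, 41.4 and 45.8 CPM in control libraries, did not pass (1.29, SE 0.57, adjusted p = 0.0841), although each CEBPG library exceeded each control.

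Fewer genes were called for the other knockouts. In ATF3 knockouts 2 were higher and none was lower (18.6% of all genes higher, 14.8% lower, 33.4% in either direction), and 2 were without overlap (34.3% of all genes). In ATF4 knockouts 4 were higher and none lower (16.6% higher, 14.6% lower, 31.3% in either direction), with 3 without overlap (44.8%). In CHOP knockouts 1 was higher and 2 were lower (18.1% higher, 15.4% lower, 33.5% in either direction), with 1 without overlap (28.9%). Medians of the 10 genes were 0.16 for ATF3, 0.08 for ATF4 and -0.36 for CHOP, beside 0.06, 0.00 and 0.01 over all genes. These counts of 2, 4 and 3 genes out of 10 are near the shares of all genes and are no result about the 10 genes.

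Lpl was higher in all 4 knockouts than in control, and no knockout library overlapped the controls. It had 124 and 120 CPM in ATF4 libraries and 69.5, 48.8, 75.4 and 44.7 CPM in controls. On the log2 scale Lpl was 1.12 above control in ATF3 libraries (SE 0.14, adjusted p = 1.48e-06) and 1.03 above it in the pair of ATF4 libraries (SE 0.17, adjusted p = 8.55e-05). In CEBPG libraries the difference was 1.72 (SE 0.15, adjusted p = 3.4e-09). It was 1.53 in CHOP libraries (adjusted p = 1.6e-08, SE 0.14). The 4 comparisons share the same controls.

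Apoe had 9593 and 5987 CPM in ATF4 libraries and 3736, 2899, 5363 and 3587 CPM in controls. Apoe rose 2.16-fold in ATF3 knockouts against control (1.11, SE 0.16, adjusted p = 1.12e-05), 2-fold in ATF4 knockouts (1.0, SE 0.20, adjusted p = 0.000498) and 1.81-fold in CEBPG knockouts (0.86, SE 0.17, adjusted p = 0.000341). In CHOP knockouts its difference did not pass (-0.30, SE 0.16, adjusted p = 0.154). Trem2, at 215 and 152 CPM in ATF4 libraries and 92.5, 80.7, 123 and 83.2 CPM in controls, was higher in ATF4 knockouts (0.95, SE 0.21, adjusted p = 0.00114), as was Tyrobp, at 248 and 136 CPM against 112, 92.6, 162 and 126 CPM in controls (0.64, SE 0.22, adjusted p = 0.0296). ATF4 replicate 1 was the higher library for all 3 genes, and without it Apoe (0.62, adjusted p = 0.0737), Trem2 (0.68, adjusted p = 0.0707) and Tyrobp (0.14, adjusted p = 0.758) no longer passed. Tyrobp was also lost without control replicate 4, 5 or 8 (adjusted p = 0.064, 0.125 and 0.0649). In CHOP knockouts Tyrobp (-0.48, SE 0.18, adjusted p = 0.0367) and Itgax (-0.85, SE 0.28, adjusted p = 0.0232) were lower than in control. Both lost the call without CHOP replicate 5 (adjusted p = 0.0913 for Tyrobp and 0.058 for Itgax) or control replicate 7 (0.158 and 0.085), and Tyrobp also without control replicate 8 (0.0562). Spp1 and Trem2 in ATF3 knockouts, which did not pass (0.80, adjusted p = 0.397, and 0.33, adjusted p = 0.143), passed without control replicate 7 (2.16, adjusted p = 0.00417, and 0.48, adjusted p = 0.0375).

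**Figure D3:**
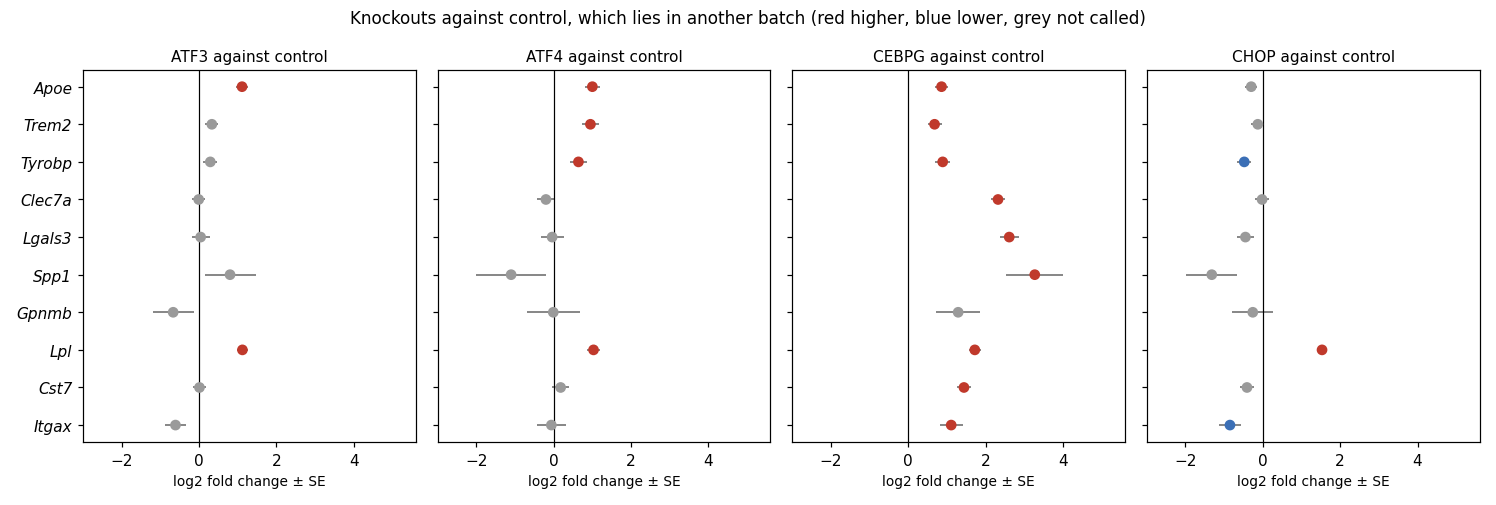
Log2 fold changes (x axis) of the 10 genes against control, with SE as bars, for each knockout. Red points were higher and blue points lower at an adjusted p below 0.05, and grey points did not pass. CEBPG has 9 red points, Lpl is red in every panel, and the blue points are Tyrobp and Itgax in CHOP.

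Since the share of myeloid reads differed between groups, the 10 genes were also measured relative to it. The myeloid core list summed to 0.806% ± 0.0515 of counted reads in CEBPG (SD, n = 4), 0.576% ± 0.0243 in ATF3 (n = 5), 0.645% ± 0.133 in ATF4 (n = 2), 0.438% ± 0.0761 in CHOP (n = 5) and 0.536% ± 0.112 in control libraries (n = 4). Scaled to that list, the median of all genes moved to -0.42 in CEBPG against ATF3, -0.87 against CHOP and -0.46 against control. The median of the 10 genes was then 1.15, 0.81 and 0.85 in the same order. On that scale 4.27% of all genes were called higher and 55.5% lower in CEBPG against CHOP, 4.07% higher and 26.8% lower against ATF3, and 7.7% higher and 33.1% lower against control. Clec7a, Lgals3, Spp1 and Cst7 remained higher in CEBPG in all 3 comparisons. Clec7a, for example, was 1.91 above ATF3, 1.53 above CHOP and 1.83 above control, and as a share of the core it was 2.53% ± 0.553 in CEBPG, 0.67% ± 0.087 in ATF3, 0.877% ± 0.159 in CHOP and 0.711% ± 0.0763 in control libraries. Lgals3 was 2.30% ± 0.176 of the core in CEBPG, 0.519% ± 0.0734 in ATF3, 0.491% ± 0.156 in CHOP and 0.537% ± 0.110 in control libraries.

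On this scale 7 genes were higher and 1 lower in CEBPG against CHOP, 6 and 1 against ATF3, and 7 and none against control. Itgax stayed higher against ATF3 (1.28, adjusted p = 0.00142) and CHOP (1.14, adjusted p = 0.00132), and Gpnmb against ATF3 (1.54, adjusted p = 0.0359). Against CHOP, Apoe (0.35) and Tyrobp (0.55) stayed higher, and against control Apoe (0.38), Tyrobp (0.40) and Lpl (1.26). Other differences were lost. Trem2 was 1.99% ± 0.355 of the core in CEBPG, 2.06% ± 0.153 in ATF3, 1.96% ± 0.25 in CHOP and 1.73% ± 0.104 in control libraries, and its log2 fold changes were 0.02 against CHOP (adjusted p = 0.922) and 0.20 against control (adjusted p = 0.297). Tyrobp and Lpl against ATF3 (0.18, adjusted p = 0.352, and 0.19, adjusted p = 0.382), Gpnmb against CHOP (0.60, adjusted p = 0.345) and Itgax against control (0.61, adjusted p = 0.102) no longer passed. Apoe became lower in CEBPG than in ATF3 (-0.67, adjusted p = 6.67e-05), and Lpl became lower in CEBPG than in CHOP (-0.63, adjusted p = 0.00209). Lpl also became lower in ATF3 than in CHOP (-0.83, adjusted p = 0.00249), where the median of all genes moved to -0.44 and 0.976% of all genes were called higher and 16.9% lower. It was 4.0% ± 0.517 of the core in CHOP libraries, against 1.08% ± 0.123 in controls. In ATF3 against CHOP Apoe stayed higher (1.02, adjusted p = 2.64e-06), Spp1 passed (1.64, adjusted p = 0.0406) and Tyrobp did not (0.37, adjusted p = 0.0505).

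**Figure D4:**
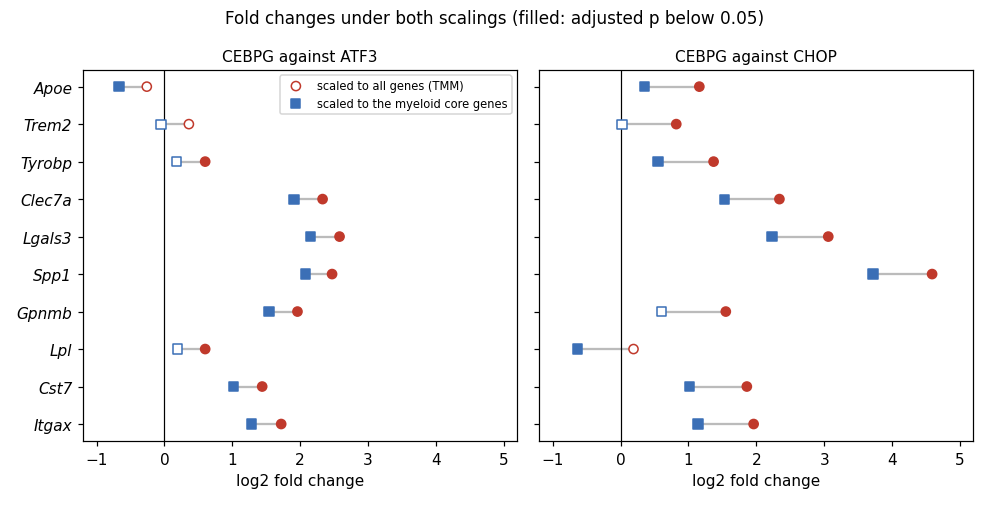
Log2 fold changes (x axis) of the 10 genes in CEBPG knockouts against ATF3 and CHOP, scaled to all genes (circles) and to the 12 myeloid core genes (squares); filled symbols passed at an adjusted p below 0.05. Clec7a, Lgals3, Spp1 and Cst7 stay filled on both scales, and against CHOP Trem2 lies at 0.02 and Lpl at -0.63 on the scale of the core.

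The wider gene set of the state was counted next, on the scale of all genes only. On that scale the median of the myeloid core list was 0.85 in CEBPG against CHOP, 0.42 against ATF3 and 0.55 against control. How far the lists below differ from the myeloid core was not tested. Of 29 other disease-associated microglia genes measured, 24 were higher and 2 lower in CEBPG against CHOP (median 0.99), 18 higher and 3 lower against ATF3 (0.62), and 21 higher and none lower against control (0.62). In ATF3 against CHOP 9 were higher and 1 was lower, and in CHOP against control 5 were higher and 7 lower. Of all genes, 1.51% were called higher and 0.756% lower in the first comparison, and 18.1% and 15.4% in the second. In CEBPG these shares were 13.5% and 13.2% against CHOP, 10.2% and 10.1% against ATF3, and 18.3% and 15% against control. They also apply to the lists that follow. The counts in CHOP against control lie near the shares and are no result about the list. Lgals1, the galectin-1 gene, was 2.45 above CHOP (SE 0.17, adjusted p = 1.93e-09) and 1.59 above ATF3 (SE 0.17, adjusted p = 6.33e-07) in CEBPG knockouts. Lyz2, a myeloid lysozyme, was 2.63 above CHOP (SE 0.18, adjusted p = 1.91e-09), and Cd52, a surface glycoprotein of leukocytes, 2.11 (SE 0.19, adjusted p = 3.13e-08). Lgals1, Lyz2 and Cd52 are also made by infiltrating leukocytes. Igf1, a growth factor of the state, went otherwise: it averaged 83.9 CPM in CEBPG, 110 in ATF3, 142 in CHOP and 33.1 in control libraries. It was higher than in control in all 3 of these knockouts (1.35, 1.74 and 2.10, adjusted p = 3.05e-06, 5.73e-08 and 3.49e-09), lower in CEBPG than in CHOP (-0.76, SE 0.17, adjusted p = 0.00172), and did not pass in CEBPG against ATF3 (-0.39, adjusted p = 0.103).

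Of 10 genes that act with TREM2 and DAP12, 7 were higher and none lower in CEBPG against CHOP, 5 and none against ATF3, and 7 and none against control. They include Inpp5d, the lipid phosphatase SHIP1 that restrains the pathway (0.97 against CHOP, SE 0.17, adjusted p = 0.000218), and Adam17, a protease that sheds TREM2 (0.91, SE 0.16, adjusted p = 0.000143). Of 12 genes of lipid handling and lysosomes, 10 were higher and none lower against CHOP, 4 and none against ATF3. Plin2, which coats lipid droplets, was 2.23 above CHOP (SE 0.21, adjusted p = 6.65e-08) and 1.6 above ATF3 (SE 0.21, adjusted p = 6.44e-06), and Npc2, a lysosomal cholesterol carrier, 0.80 above CHOP (SE 0.11, adjusted p = 1.28e-05). Among 10 transcription factors linked to the state, 6 were higher and none lower against both CHOP and ATF3, among them Spi1, which encodes PU.1 (1.25 against CHOP, SE 0.18, adjusted p = 1.99e-05) and Irf8 (0.98, SE 0.13, adjusted p = 6.81e-06). Against CHOP the median was 0.89 for the TREM2 and DAP12 list, 0.80 for lipid handling and lysosomes and 0.79 for the transcription factors. The myeloid core list had 0.85.

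Genes of resting microglia were not lower in CEBPG knockouts as a list, on the scale of all genes. Of 12, 6 were higher and none lower against CHOP (median 0.36), and 2 higher and 1 lower against ATF3 (0.06). Against control 6 were higher and none lower (0.37). These medians lie below those of the myeloid core, at 0.85, 0.42 and 0.55 in the same order. The list was not tested relative to the core. The counts against ATF3 lie near the shares of all genes (10.2% higher, 10.1% lower) and are no result about the list. The one that was lower against ATF3 was Fcrls (-1.31, SE 0.15, adjusted p = 1.27e-06), an Fc receptor-like gene of microglia, which was 2.53 higher in ATF3 than in CHOP (SE 0.15, adjusted p = 1.59e-10). The list summed to 0.331% ± 0.0344 of reads in CEBPG, 0.285% ± 0.00932 in ATF3, 0.262% ± 0.0179 in ATF4, 0.228% ± 0.0338 in CHOP and 0.227% ± 0.0462 in control libraries. All 12 myeloid core genes were higher in CEBPG against CHOP and 7 of 12 against ATF3, Ptprc, the pan-leukocyte gene CD45, by 2.00 (SE 0.16, adjusted p = 6.75e-09) and 1.65 (SE 0.16, adjusted p = 1.30e-07).

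Markers of blood-borne leukocytes and of other macrophages moved with the same group. A list of 11 counted genes of monocytes, macrophages and neutrophils summed to 0.0458% ± 0.00242 of reads in CEBPG (from 0.0442% to 0.0494%), 0.0198% ± 0.00224 in ATF3, 0.00995% ± 0.000931 in ATF4, 0.0099% ± 0.00183 in CHOP and 0.00938% ± 0.00177 in control libraries. Of the 11, 10 were higher and 1 was lower in CEBPG against CHOP, and 5 were higher and 1 lower against ATF3. Ccr2, the chemokine receptor of inflammatory monocytes, had 158 ± 17.1 CPM in CEBPG, 65.6 ± 10.5 in ATF3, 3.09 ± 2.99 in ATF4, 19.6 ± 10.5 in CHOP and 6.46 ± 1.36 in control libraries. Ly6c2, of the same cells, was 4.94 above CHOP (SE 0.55, adjusted p = 6.57e-07), while Lyve1, of resident border macrophages, was lower in CEBPG, with a log2 fold change of -2.45 against ATF3 (SE 0.27, adjusted p = 7.54e-07) and of -1.17 against CHOP (SE 0.26, adjusted p = 0.00151). Mrc1, also of macrophages, went the other way, with 16.4 ± 1.67 CPM in CEBPG, 3.04 ± 1.78 in ATF3, 2.11 ± 2.52 in CHOP and 3.1 ± 2.61 in control libraries. Cd163 was at 0 in every library outside the CEBPG group. The 9 T and NK lymphocyte genes summed to 0.134% ± 0.0228 of reads in CEBPG, 0.0208% ± 0.00153 in ATF3, 0.0030% ± 0.00296 in ATF4, 0.0269% ± 0.00447 in CHOP and 0.000803% ± 0.000319 in control libraries. The part of these cells in the levels of the 10 genes was not tested.

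**Figure D5:**
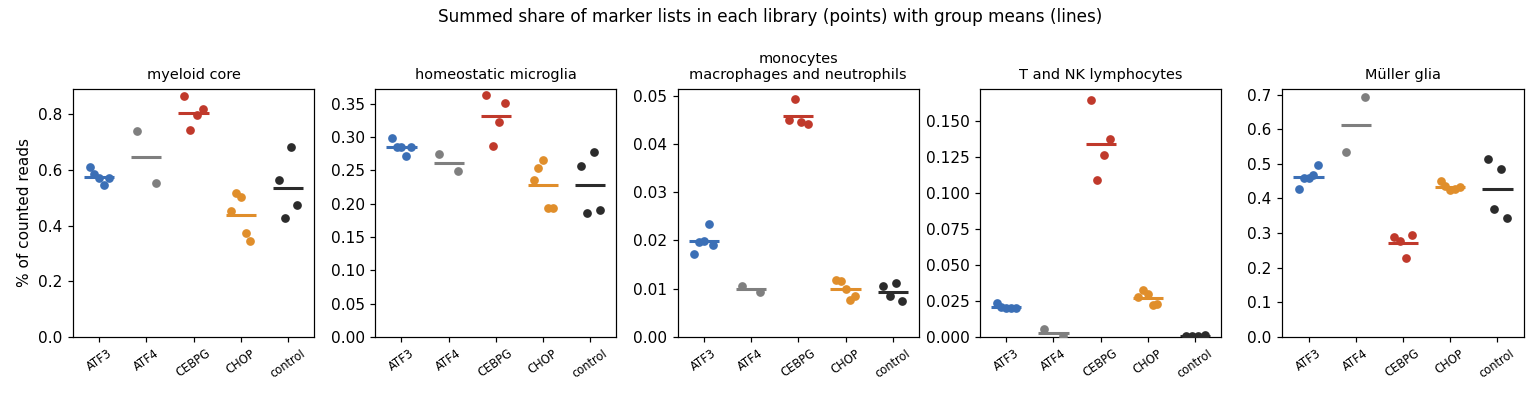
Summed share of counted reads (percent, y axis from 0) of 5 marker lists in each library (points), with group means as lines. The CEBPG libraries are highest for the myeloid core (mean 0.806%), the monocyte, macrophage and neutrophil list (0.0458%) and the T and NK list (0.134%), and lowest for Müller glia (0.272%).

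Within groups, the 10 genes followed the myeloid core to different degrees. The deviation of each library from its group mean in log2 CPM was correlated across the 20 libraries, which share depth and library quality between genes, as a description. Apoe, Tyrobp and Trem2 followed the sum of the myeloid core, with Pearson's r of 0.90, 0.82 and 0.78, and each other, with 0.82 for each of the 3 pairs. Clec7a and Lgals3 followed the core less closely (0.50 and 0.53) and each other hardly (0.16). Spp1 (0.50), Itgax (0.47), Lpl (0.43) and Cst7 (0.36) also followed the core less closely. With the monocyte, macrophage and neutrophil list, Itgax (0.68), Lpl (0.61) and Clec7a (0.59) had a higher r than with the core, and the other genes a lower one. Gpnmb was nearly unrelated to the core (0.10), and ran with Lgals3 (0.53) and Spp1 (0.51) and against Itgax (-0.53). Apoe had an r of 0.09 with the Müller glia list, and Spp1 one of 0.46 with the alpha ganglion cell list. Gpnmb had -0.28 with the pigment cell list and Itgax 0.34 with the dendritic cell list. With the rod photoreceptor list, r ran from -0.68 for Lpl and -0.6 for Itgax to 0.39 for Gpnmb.

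The genes whose deviations were most like those of a member, among 12569 genes at a mean of at least 5 CPM, were Arpc1b for Apoe (r = 0.95), C1qb for Trem2 (0.88), Cox7c for Tyrobp (0.98), Fahd2a for Clec7a (0.83), followed by Il1b (0.82), Bloc1s1 for Lgals3 (0.84), Hbegf for Spp1 (0.81), Mecr for Gpnmb (0.74), AV051173 for Lpl (0.85), Plec for Cst7 (0.84) and Sgsh for Itgax (0.77), each over 20 libraries. C1qb, the first gene for Trem2, is a complement gene of microglia and belongs to the myeloid core list.

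In the authors' deposited table of fold changes per knockout, taken here as log2, Cst7 (1.23, FDR 0.000455), Itgax (1.37, FDR 0.0096), Clec7a (1.13, FDR 0.0115) and Apoe (0.70, FDR 0.00712) were higher in CEBPG. In the authors' deposited table Lgals3 (0.64, FDR 0.272), Spp1 (1.91, FDR 0.0817), Lpl (0.39, FDR 0.469), Tyrobp (0.33, FDR 0.356) and Trem2 (0.03, FDR 0.959), which were called higher above, did not pass in CEBPG. That table also gave Apoe as 1.09 (FDR 0.0124) in ATF3. Lpl, higher above in all 4 knockouts, passed there in none. It was -0.65 in ATF3, 1.47 in ATF4 and 0.05 in CHOP (FDR 0.533, 0.185 and 0.983). Nor did Apoe (0.49, FDR 0.43), Trem2 (0.57, FDR 0.556) and Tyrobp (-0.26, FDR 0.812) pass there in ATF4. In CHOP, Tyrobp (-1.25, FDR 0.0799) and Itgax (-0.05, FDR 0.983) did not pass there either. The sign thus differed for Lpl in ATF3 and for Tyrobp in ATF4. The authors' deposited table also called genes lower that did not pass above: Gpnmb was -5.58 in ATF3, -1.63 in CEBPG and -5.65 in CHOP (FDR 0.000318, 0.0339 and 0.00203), Lgals3 was -3.10 in ATF3 and -3.68 in CHOP (FDR 0.00276 and 0.00473), and Clec7a was -1.62 in ATF3 (FDR 0.0306). The fit of the counts gave -0.67, 1.29 and -0.26 for Gpnmb, 0.04 and -0.45 for Lgals3 and -0.01 for Clec7a. Among these values called lower by the authors, the sign differs for Gpnmb in CEBPG and Lgals3 in ATF3 and the size for the others. The sources used here do not say which libraries entered the authors' deposited table. In the library placed in no group, whose title is that of a control, Gpnmb had 555 CPM without TMM factors, against 23.9 to 44.0 in the 4 controls, and Lgals3 had 317, against 20.5 to 34.1.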

How the data were processed

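RNA sequencing libraries were made with a SMART-Seq kit from cells sorted as retinal ganglion cells, per the labels' protocols. Per the submitters' processing notes, STAR, Picard, HTSeq and edgeR were used with mm10, without versions. The sources used here do not give the annotation, the counting settings or strand, so reads of overlapping or antisense genes cannot be told apart. The authors deposited raw read counts for 17164 genes in 21 libraries, a table of fold changes whose unstated base was taken as log2, with p-values (FDR), and a sample sheet with sex, batch, age, the aligned reads as counts and the duplicate fraction (48.0% to 57.6% as percent). A further 36 columns of the sheet were not used.

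Groups follow the sample titles, and 1 library with contradictory labels was left out. The labels do not tie libraries to animals, and a p-value here covers only the spread of these libraries, which may be technical. The tests used edgeR 4.0.16 in R 4.3.3. filterByExpr (minimum count 10) kept 16797 genes and dropped 367, and scaling was by TMM. All 20 libraries entered 1 quasi-likelihood fit (15 residual degrees of freedom; the coefficient of biological variation was 0.407). Each of 7 comparisons was a contrast, and a call needed an adjusted p (Benjamini-Hochberg, over all genes tested) under 0.05. Every adjusted p given comes from this test unless the authors' table is named. The edgeR step was tested on simulated data. Promoters are from RefSeq and gene coordinates from GENCODE on mm10.

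The 10 genes and 16 further gene lists were chosen with earlier results of these data known. All 10 genes are named in every comparison. Of each other list, up to 3 called genes by adjusted p were eligible to be named among knockouts of batch 3 and up to 3 against control, and 1 eligible gene is not reported here. The 3 genes most like each member were ranked by the within-group correlation of log2 CPM (prior count 2). Alternatives were DESeq2 1.42.0, its size factors, no filter, fits of fewer groups, a replicate block, leaving out libraries, and scaling to 12 myeloid core or 12 resting microglia genes.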

Additional observations from a re-analysis of the deposited data

Results flagged for a closer look

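Lgals3 in CHOP replicate 3 stood far from the rest of its group, at 35.6 CPM against 16.4 to 21.1 CPM in the other 4 CHOP libraries. Its gap to the nearest library was 0.754 of the whole range of the group. Chance alone gives about 1 such case in 20, and 40 sets of values (10 genes in 4 groups) were looked at. Without that library the difference of Lgals3 passed in ATF3 against CHOP (0.76, adjusted p = 0.0374) and in CHOP against control (-0.72, adjusted p = 0.00813).

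The library in no group, with the title of a control and the genotype of a CHOP knockout, was above all 4 controls for 9 of the 10 genes, in CPM without TMM factors. Gpnmb was at 555 in it and at 23.9 to 44.0 in the controls. Lgals3 was at 317, against 20.5 to 34.1. Lpl was at 360, against 43.0 to 75.5. Clec7a was at 169, against 30.0 to 42.5. Trem2 was at 266, against 77.8 to 124, and Tyrobp at 300, against 89.4 to 162. Spp1 was at 245, against 5.94 to 132. Apoe was at 5567, against 2797 to 5369, and Cst7 at 23.9, against 13.9 to 22. For Gpnmb, Lgals3, Lpl, Trem2 and Tyrobp it was also above all 20 libraries of the 5 groups, whose highest values were 149, 206, 266, 208 and 286.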

How the results depend on the processing

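The counts of called genes in CEBPG knockouts, higher and lower together, stayed within 1.5 times under every alternative run (6 to 10 of 10). No gene called in the main fit changed sign under any. Scaled to the myeloid core, 6 were higher and 1 lower against ATF3, and 7 higher and 1 lower against CHOP. Scaled to resting microglia, 8 were higher and 1 lower against ATF3. The main fit called none lower in these comparisons. The labels do not say whether the numbers in the sample titles pair the libraries. Deviations of same-numbered libraries from their group means had correlations of -0.05 to 0.03. These values give no sign of pairing, but with noise in each library they cannot settle it. With the number as a replicate block, 0 genes were called in ATF4 against control, 1 in CHOP against control and 1 in ATF3 against CHOP. The block moved the CEBPG counts to 8 against control, 6 against ATF3 and 7 against CHOP. In ATF3 against CHOP 4 genes were called by DESeq2, with only these 2 groups in the fit, and with only the batch 3 libraries. Scaled to the myeloid core, 1 was called in CHOP against control. With single libraries left out the counts were 2 to 4 in ATF3 against control, 1 to 4 in ATF4 against control, 1 to 5 in CHOP against control and 2 to 3 in ATF3 against CHOP.

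Signs that turned belonged to differences that had not passed. In ATF3 against control they were Lgals3 (0 with DESeq2 size factors and with DESeq2, -0.05 and -0.28 scaled to the core and to resting microglia), Cst7 (-0.03 with DESeq2 size factors and with DESeq2, -0.09 and -0.31 with these scalings, -0.02 with 2 groups fitted, -0.01 with the replicate block) and Tyrobp (-0.01 scaled to resting microglia). In ATF4 against control they were Cst7 (-0.07 and -0.04 scaled, -0.06 with the block), Spp1 (0.29 with the block) and Gpnmb (1.28 with the block). In CHOP against control they were Apoe (0.03), Trem2 (0.18), Clec7a (0.30) and Gpnmb (0.17) scaled to the core, and Gpnmb (0.01) with the block. In ATF3 against CHOP, Clec7a was -0.39 and -0.31 and Itgax -0.14 and -0.07 under the scalings. In CEBPG against ATF3, Trem2 was -0.05 scaled to the core, and in CEBPG against CHOP, Lpl was -0.63 and -0.27 under the scalings. With single libraries left out, ranges that cross 0 were, in ATF3 against control, Clec7a -0.12 to 0.04, Lgals3 -0.11 to 0.14 and Cst7 -0.09 to 0.13. In ATF4 against control they were Clec7a -0.72 to 0.18, Lgals3 -0.69 to 0.41, Spp1 -2.38 to 0.26, Gpnmb -1.28 to 0.65 and Itgax -0.27 to 0.10. In CHOP against control they were Trem2 -0.24 to 0, Clec7a -0.15 to 0.02 and Spp1 -1.70 to 0.03, and in ATF3 against CHOP Clec7a -0.06 to 0.14 and Gpnmb -0.77 to 0.09. The causes were not tested. Reads of rod photoreceptor genes were at most 4.42% of a library, so leaving them out of the total could move the marker shares only little. That step moved 0 of 85 shares by more than the spread between libraries. Depth is lowest in the controls, where Spp1 rested on 38 reads in 1 library.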
